A study of Mus musculus with 13 samples.

Results

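In livers of control mice, 3426 binding sites of the glucocorticoid receptor (GR) were called both with and without dexamethasone and had no counterpart in livers of dKO mice under either treatment. They were chosen by a rule on the 4 deposited GR peak lists. A site was a peak of the control vehicle list that overlapped a control dexamethasone peak by at least 1 bp and had no dKO vehicle or dKO dexamethasone peak within 500 bp, centre to centre. The members made up 11.4% of the 30011 control vehicle peaks (95% Clopper-Pearson interval 11.1 to 11.8%) and 13.9% of the 24576 control peaks called under both treatments, here named constant sites. All 7 lists of the series, 4 for GR and 3 for its corepressor NCOR1, held 217044 peaks.

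GR is a nuclear receptor that moves into the nucleus once it binds a glucocorticoid and turns on gluconeogenic, amino acid catabolic and anti-inflammatory genes in hepatocytes. NCOR1 is a corepressor that links nuclear receptors with HDAC3, an enzyme that removes acetyl groups from histones, and was first known as a repressor of genes bound by receptors without ligand. The study compared livers of male mice at zeitgeber time 10, 2 h after injection. The dKO mice are labelled CRE and have a knockout that includes NCOR1, and the control mice are labelled GFP. Each genotype received dexamethasone, a synthetic glucocorticoid, at 1 mg/kg, or vehicle. How Cre was delivered, in which cells it acted, the strain and the age of the mice are not given in the sources used here. GR was mapped by chromatin immunoprecipitation and sequencing (ChIP-seq) in dKO dexamethasone, dKO vehicle, control dexamethasone and control vehicle livers, with 2 libraries each. NCOR1 was mapped in dKO vehicle (1 library), control dexamethasone (2 libraries) and control vehicle (1 library) livers. Each list pools the libraries of its group, so no value below has a spread between animals, and every interval covers counting error over sites only.

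The promoters of 207 genes or transcripts held the centre of a member, which was 6.04% of members, against 4.48% of the 16420 constant sites called in both dKO lists (kept sites). The share over all control vehicle GR peaks is not given here, and kept sites were not matched to members in GR signal. For a related measure, a gene end within 1000 bp, members had 14.7% and all control vehicle GR peaks 15.4%. A promoter is here the window from 250 bases before to 50 after a RefSeq start, in a table (build GRCm38.p6, the assembly of mm10) that does not hold every gene. The windows of 4 genes of liver secretion and metabolism, among the 6 protein-coding windows with the strongest members, are shown so that the occupied stretch can be seen. The other windows of the 6, at Ccdc38 and S1pr5, held stronger members than that of Gstp3 and are not shown. Capitals mark the part covered by the 200 bp GR peak, 5′ to 3′ on the gene's strand, credited to RefSeq.
Serpina1c (chr12:103904901-103905200, minus strand): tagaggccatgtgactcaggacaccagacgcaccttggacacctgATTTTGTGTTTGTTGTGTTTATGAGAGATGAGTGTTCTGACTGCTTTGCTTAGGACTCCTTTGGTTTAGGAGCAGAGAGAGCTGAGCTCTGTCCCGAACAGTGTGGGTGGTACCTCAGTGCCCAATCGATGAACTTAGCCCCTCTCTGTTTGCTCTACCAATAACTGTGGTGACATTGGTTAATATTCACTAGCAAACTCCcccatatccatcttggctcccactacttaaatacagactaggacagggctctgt
Cyp2d26 (chr15:82794196-82794495, minus strand): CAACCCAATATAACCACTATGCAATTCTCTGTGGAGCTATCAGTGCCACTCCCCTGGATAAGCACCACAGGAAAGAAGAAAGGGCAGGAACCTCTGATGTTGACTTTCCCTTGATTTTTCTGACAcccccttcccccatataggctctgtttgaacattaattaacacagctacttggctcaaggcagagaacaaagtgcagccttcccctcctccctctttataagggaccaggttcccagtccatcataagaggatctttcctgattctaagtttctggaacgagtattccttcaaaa
Acsm5 (chr7:119526015-119526314, plus strand): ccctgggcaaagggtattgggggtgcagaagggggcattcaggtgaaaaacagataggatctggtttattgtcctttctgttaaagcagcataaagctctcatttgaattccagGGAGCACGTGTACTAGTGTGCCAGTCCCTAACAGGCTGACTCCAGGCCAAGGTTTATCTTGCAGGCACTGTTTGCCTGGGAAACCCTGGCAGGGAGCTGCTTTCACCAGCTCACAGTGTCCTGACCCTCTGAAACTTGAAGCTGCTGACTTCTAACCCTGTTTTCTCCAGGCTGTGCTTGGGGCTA
Gstp3 (chr19:4059398-4059697, minus strand): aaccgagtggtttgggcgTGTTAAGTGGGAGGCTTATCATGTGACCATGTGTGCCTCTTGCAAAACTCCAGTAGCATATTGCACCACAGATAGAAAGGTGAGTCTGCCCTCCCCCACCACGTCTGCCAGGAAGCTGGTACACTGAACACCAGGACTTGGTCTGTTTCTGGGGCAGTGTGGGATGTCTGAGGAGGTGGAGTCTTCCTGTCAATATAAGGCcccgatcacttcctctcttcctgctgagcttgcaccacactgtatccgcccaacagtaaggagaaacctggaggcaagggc

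Serpina1c encodes an alpha-1 antitrypsin, a protease inhibitor that the liver secretes. Its peak was centred 105 bases before the start and had GR tag counts, in tags per 10 M sequenced tags, of 41.6 in control dexamethasone and 35.9 in control vehicle liver. Cyp2d26, a cytochrome P450 gene, had 18.1 under dexamethasone and 20.6 under vehicle, Acsm5, a medium-chain acyl-CoA synthetase gene, 21.0 and 18.7, and Gstp3, a glutathione transferase gene, 20.0 and 17.5. The nearest dKO peak was between 1822 bp (Cyp2d26) and 6910 bp (Gstp3) from these 4 sites. NCOR1 was called at all 4 promoters in control vehicle liver, where 78.2% of all members had such a peak. Its tag counts were 45.9 at Serpina1c, 81.6 at Cyp2d26, 33.2 at Acsm5 and 57.4 at Gstp3. In control dexamethasone liver it was called at Cyp2d26, Acsm5 and Gstp3 and not at Serpina1c. Nor was NCOR1 called there at Ccdc38 and S1pr5, whose windows are not shown. In dKO vehicle liver it was called at none of the 4, and at 12.6% of all members. Of all control vehicle GR peaks, 54.3% had control vehicle NCOR1 and 14.7% dKO vehicle NCOR1.

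A search of both strands for 6 motifs found a match in 1 of these 4 windows, ttgcaaaa at bases -193 to -186 of Gstp3, for the CEBP motif TTGCNNAA. Over the 207 member windows this motif had a match in 19.3% (95% Clopper-Pearson interval 14.2 to 25.4%), against 13.6% (11.2 to 16.3%) of 735 windows with a kept site and 10.8% of all 32817 windows. AGGTCA, the core of nuclear receptor elements, was found in 25.6% (19.8 to 32.1%) of member windows, against 17% (14.4 to 19.9%) of kept windows and 16.3% of all windows. The glucocorticoid response element, searched by its palindromic consensus, was found in 2 member windows (0.966%, 0.117 to 3.45%), in 22 kept windows (2.99%, 1.89 to 4.50%) and in 0.475% of all windows. STAT5 (TTCNNNGAA) was found in 11.1% of member windows, 6.12% of kept windows and 8.29% of all windows, FOXA (TGTTTAC) in 4.83%, 4.22% and 3.65%, and HNF4A (CAAAGTCCA) in 0.966%, 0.680% and 0.475%. A match is a string in the window, which is not the same stretch as the peak. The Gstp3 match lies in the part covered by the GR peak, printed in capitals above. Sequence away from promoters was not analysed here.

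Of the 24576 constant sites, 3603 had no overlapping dKO peak, and 177 of these (4.91%) were set aside because a dKO peak lay within 500 bp, which leaves the members. The other constant sites were the 16420 kept sites (66.8%), 3041 sites (12.4%) near a peak of the dKO dexamethasone list only, and 1689 (6.87%) near a peak of the dKO vehicle list only. The dKO dexamethasone list rested on 31.9 M tags and the dKO vehicle list on 31.1 M, against 30.03 M for control dexamethasone and 27.5 M for control vehicle, so the dKO lists were the deeper ones. The share of tags in peaks was 3.40% for dKO vehicle and 7.23% for control dexamethasone, the lowest and the highest of the 4 lists. At kept sites the tag count in dKO was a median 0.871 of that in control under vehicle (quartiles 0.679 and 1.05) and 0.758 under dexamethasone (0.616 and 0.919). With their fold over input multiplied by these medians, 3072 members would stay at or above the 4-fold limit of the peak caller under vehicle and 2900 under dexamethasone. Kept sites were called in dKO, so these ratios lean upward, and they say nothing of the local limit. Members were themselves called at 4-fold or more in control liver, so their folds lean upward too. Why members were not called in dKO was not tested. A site missing from a dKO list was not called there, which does not show that GR was absent. In whole liver, fewer cells with GR at a site and less GR per cell cannot be told apart.

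GR tag counts at members were low. The rule used these lists, so the values describe the members and are not tested. Under dexamethasone the members ranged from 4.50 to 94.7 with a median of 10.5, and kept sites had a median of 15. Under vehicle the members ranged from 4.55 to 60.6 with a median of 8.92, and kept sites had a median of 17.1. Among members 112 had a vehicle tag count of 20 or more and 15 of 30 or more, against 5685 and 1836 kept sites. Members were 34.1% of constant sites in the lowest class of vehicle tag count (4.55 to 8.92), 20.0% in the next, then 9.10% and 3.92%, and 1.63% in the highest (21.7 to 724.8). The tag count was higher under dexamethasone than under vehicle at 67.9% of members and 45.6% of kept sites. The median ratio of dexamethasone over vehicle was 1.14 at members, 1.46 at sites near a dKO dexamethasone peak only, 0.940 at sites near a dKO vehicle peak only and 0.931 at kept sites.

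**Figure D1:**
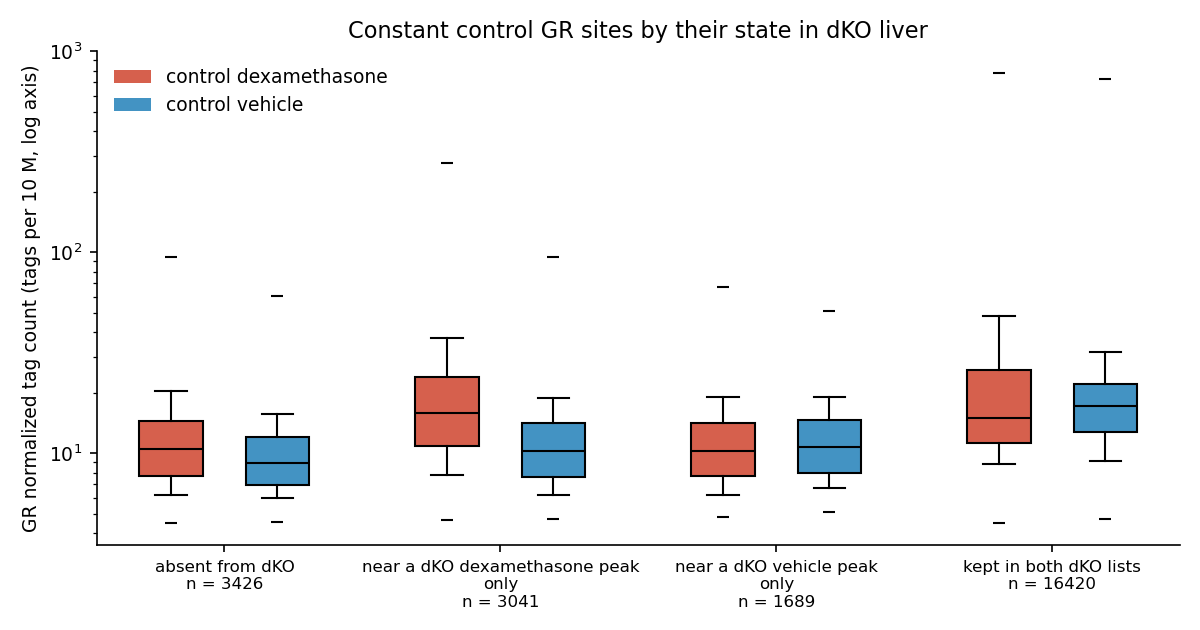
GR normalized tag counts (tags per 10 M, log axis) of the 24576 constant control sites in the control dexamethasone and control vehicle lists, by their state in dKO liver. Boxes span the quartiles with the median as a line, whiskers run from the 10th to the 90th percentile and dashes mark the lowest and highest site; sites absent from dKO have medians of 10.5 under dexamethasone and 8.92 under vehicle.

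Members also stood out little from their surroundings. Their fold over the local 10 kb had a median of 5.94 in the control vehicle list, near the limit of 4, against 13.0 at kept sites, and 80.1% of members were under 8-fold, against 23.1% of kept sites. Fold over input had a median of 7.35 at members and 17.6 at kept sites. The nearest dKO GR peak lay a median 11506 bp from a member, and 45.6% of members had a dKO peak within 10 kb.

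The strongest member lay 99.6 kb outside Ptpn1, which encodes a tyrosine phosphatase that dampens insulin signalling (chromosome 2, 167831075 to 167831275). It had GR tag counts of 45.6 under dexamethasone and 60.6 under vehicle, and the nearest peaks lay 816 bp away in the dKO dexamethasone list and 825 bp away in the dKO vehicle list. A site inside Hmcn2, a hemicentin gene (chromosome 2, 31459333 to 31459533), had 94.7 and 59.2, with the nearest dKO peak at 1066 bp. Zbtb16, a zinc finger gene strongly induced by glucocorticoids, had an intragenic site with 74.3 and 56.6 (chromosome 9, 48749252 to 48749452), 4121 bp from a dKO peak. These 3 sites had under 8-fold over the local 10 kb, at 7.86, 6.14 and 5.44. Each was the only member of its gene. Of the constant sites assigned to the gene, 5 of 8 were kept at Ptpn1, 1 of 3 at Hmcn2 and 12 of 14 at Zbtb16. The site in Ptprd, a receptor tyrosine phosphatase gene (chromosome 4, 76962705 to 76962905), stood clear with a local fold of 30.1, GR tag counts of 74.8 and 50.2, and no dKO peak within 20934 bp.

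The next sites by vehicle tag count lay outside Slc2a6, a glucose transporter family gene (46.6 under dexamethasone and 53.3 under vehicle), outside Itih3, an inter-alpha-trypsin inhibitor gene of plasma (57.3 and 51.9), and inside Dap (26.0 and 51.3). A site 78.3 kb outside the endocytic adaptor gene Dab2 had 80.9 and 36.9. The member ranked 8 by vehicle tag count had no protein-coding gene within 100 kb (chromosome 13, 52153679 to 52153879), with GR tag counts of 50.1 and 40.0 and a dKO peak 593 bp away. Rusc2, Zfp395 and Ankrd55 each held a site, with 49.6 and 34.6, 24.8 and 32.9, and 21.6 and 31.3. Tag counts were higher under dexamethasone at 8 of the 12 strongest members. These were the site with no gene and those at Serpina1c, Hmcn2, Zbtb16, Itih3, Ptprd, Dab2 and Rusc2. The vehicle value was the higher at Ptpn1, Slc2a6, Dap and Zfp395, and at Ankrd55, which ranked next after the 12. No change between these pooled lists could be tested.

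**Figure D2:**
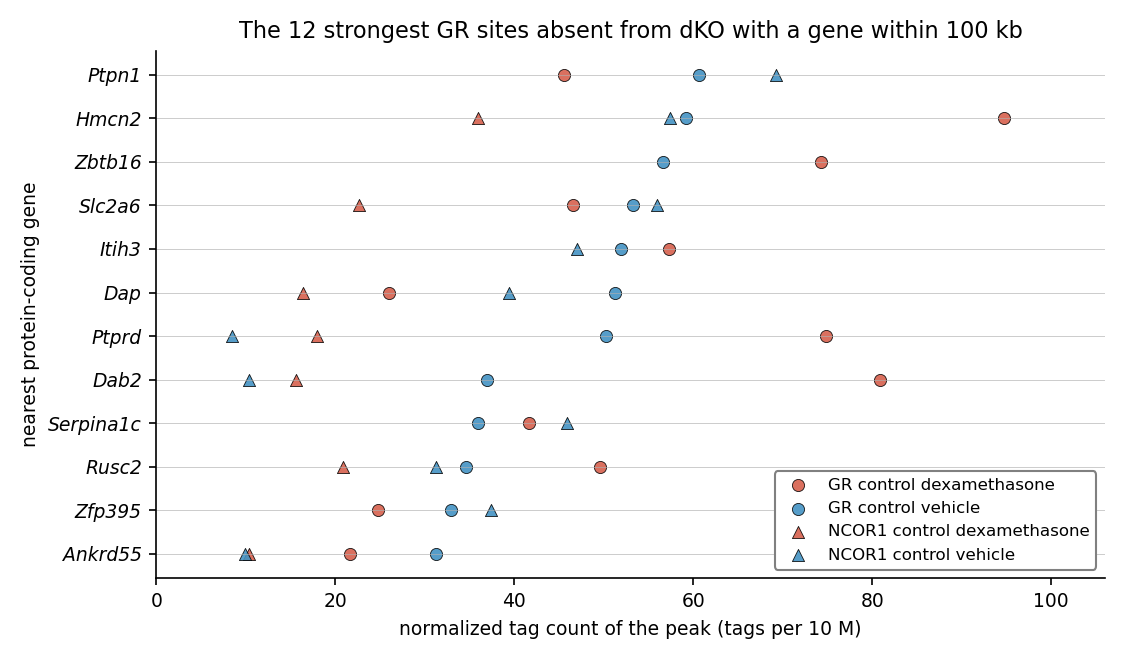
Normalized tag counts (tags per 10 M) of GR (circles) and NCOR1 (triangles) peaks at the 12 members with the highest control vehicle GR tag count among those with a protein-coding gene within 100 kb, in control dexamethasone (red) and control vehicle (blue) liver; a missing triangle means that no NCOR1 peak overlapped. All but Zbtb16 had NCOR1 in control vehicle liver, and the GR values ran from 21.6 to 94.7.

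NCOR1 in control liver lay at most members. A control vehicle NCOR1 peak overlapped 78.2% of members (2678 sites, 95% interval 76.7 to 79.5%), where 54.3% of all control vehicle GR peaks had one, and 44.0% of kept sites. A control dexamethasone NCOR1 peak overlapped 74.3% of members (2544 sites, 72.8 to 75.7%), where all control vehicle GR peaks had 52.7% and kept sites 45.9%. In dKO vehicle liver the NCOR1 antibody gave a peak at 12.6% of members (431 sites, 11.5 to 13.7%), near the 14.7% of all control vehicle GR peaks and the 14.1% of kept sites. The rule did not use the NCOR1 lists. From 17.5 M tags the dKO vehicle NCOR1 list still held 17282 peaks, against 39458 from 17.8 M tags in control vehicle liver.

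Because strong and weak sites may differ in NCOR1, kept sites were weighted to the members' distribution over the 5 classes of control vehicle GR tag count. The share with control vehicle NCOR1 was then 26.6 percentage points higher at members (95% interval of the difference 24.7 to 28.6), with 78.2% at members and 51.5% at kept sites. For control dexamethasone NCOR1 it was 17.1 points higher (15.1 to 19.0), with 74.3% and 57.2%. For dKO vehicle NCOR1 it was lower, by a difference of -7.78 points (-9.40 to -6.16), with 12.6% and 20.4%. With classes of control dexamethasone GR tag count in place of vehicle, the 3 differences were 45.9, 41.7 and 0.824 points (-0.461 to 2.11 for the last). With that matching no difference in dKO NCOR1 was resolved. With both tag counts matched, the difference in dKO NCOR1 was -8.68 points (-10.4 to -6.92). By class, the share of members with control vehicle NCOR1 was 70.6% in the lowest class and 93.7% (74 of 79 sites) in the highest, against 56.4% and 55.7% of kept sites. In the second highest class it was 89.1% of members and 28.2% of kept sites.

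**Figure D3:**
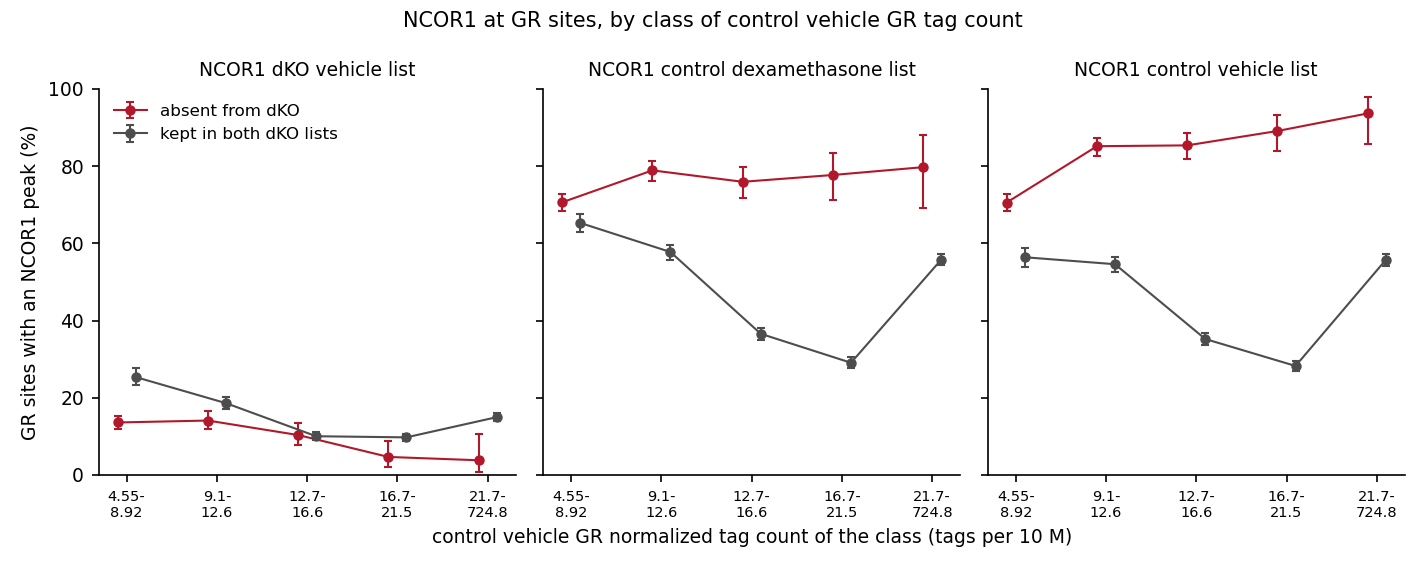
Share of GR sites (%) with an overlapping NCOR1 peak, by class of control vehicle GR tag count (tags per 10 M), for sites absent from dKO (red) and kept in both dKO lists (grey), one panel per NCOR1 list; points are shares and bars 95% Clopper-Pearson intervals. For control vehicle NCOR1 the red points run from 70.6% to 93.7% and lie above the grey ones in all 5 classes.

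NCOR1 also moved with the fold over the local 10 kb, in which members and kept sites differ. Among kept sites, control vehicle NCOR1 was found at 72.4% of those with the lowest local fold (4 to 5.97) and 15.2% of those with the highest (19.8 to 416.5). Among members it was found at 77.0% of 1747 sites in the lowest class and 76.3% of 131 sites in the second highest, and the highest class held 9 members. For control dexamethasone NCOR1 the lowest class had 72.9% of members, below the 77.5% of kept sites. In the second highest class it had 71.0% of members and 35.9% of kept sites. Within classes of tag count and local fold together, the members' share was 12.5 points higher for control vehicle NCOR1 (10.5 to 14.5), 2.72 points higher for control dexamethasone NCOR1 (0.712 to 4.74) and lower for dKO vehicle NCOR1 (-12.5 points, -14.3 to -10.7). Among GR peaks with at least 8-fold over the local 10 kb, which kept 681 members, the differences were 48.0 points (44.7 to 51.3), 39.8 points (36.3 to 43.4) and -5.97 points (-7.79 to -4.15) in the same order. These sites were matched on vehicle tag count only, so members and kept sites still differed in local fold. In the class of 8.06 to 11.75-fold, with 521 members, control vehicle NCOR1 lay at 81.8% of members and 63.0% of kept sites. For control dexamethasone NCOR1 the shares there were 76.6% and 65.2%, and for dKO vehicle NCOR1 4.99% and 19.3%.

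**Figure D4:**
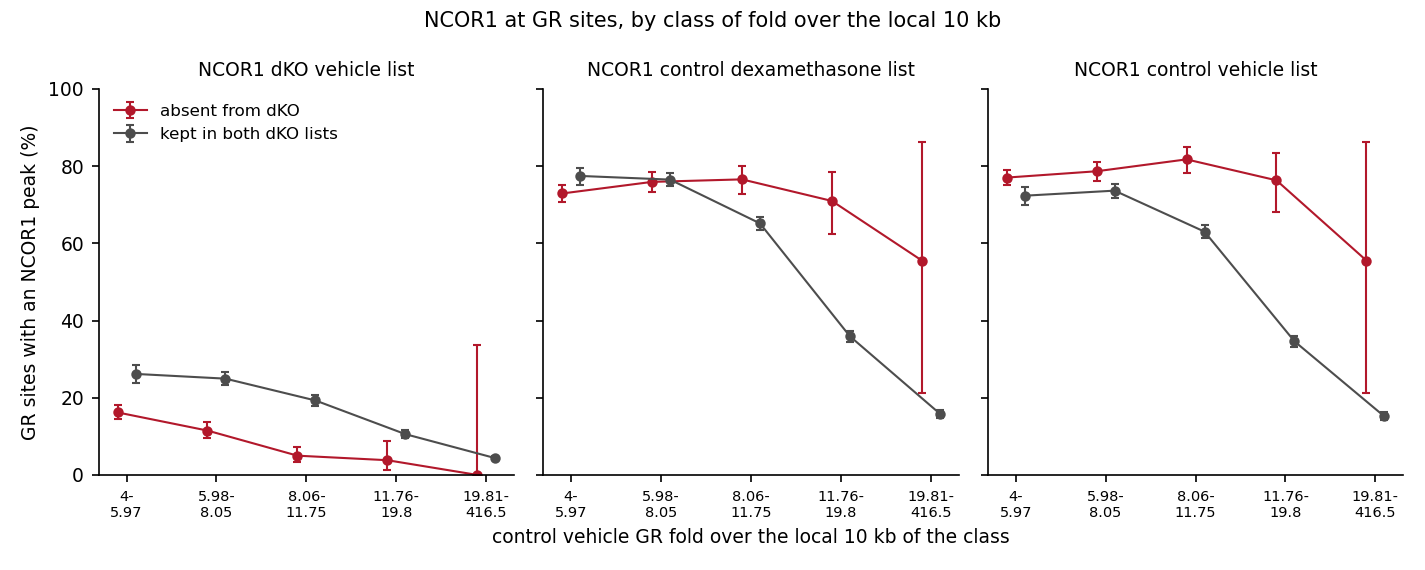
Share of GR sites (%) with an overlapping NCOR1 peak, by class of fold over the local 10 kb in the control vehicle GR list, for sites absent from dKO (red) and kept in both dKO lists (grey); bars are 95% Clopper-Pearson intervals. The groups lie close together for control NCOR1 in the lowest class (77.0% and 72.4% under vehicle) and apart in the second highest (76.3% and 34.6%).

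**Figure D5:**
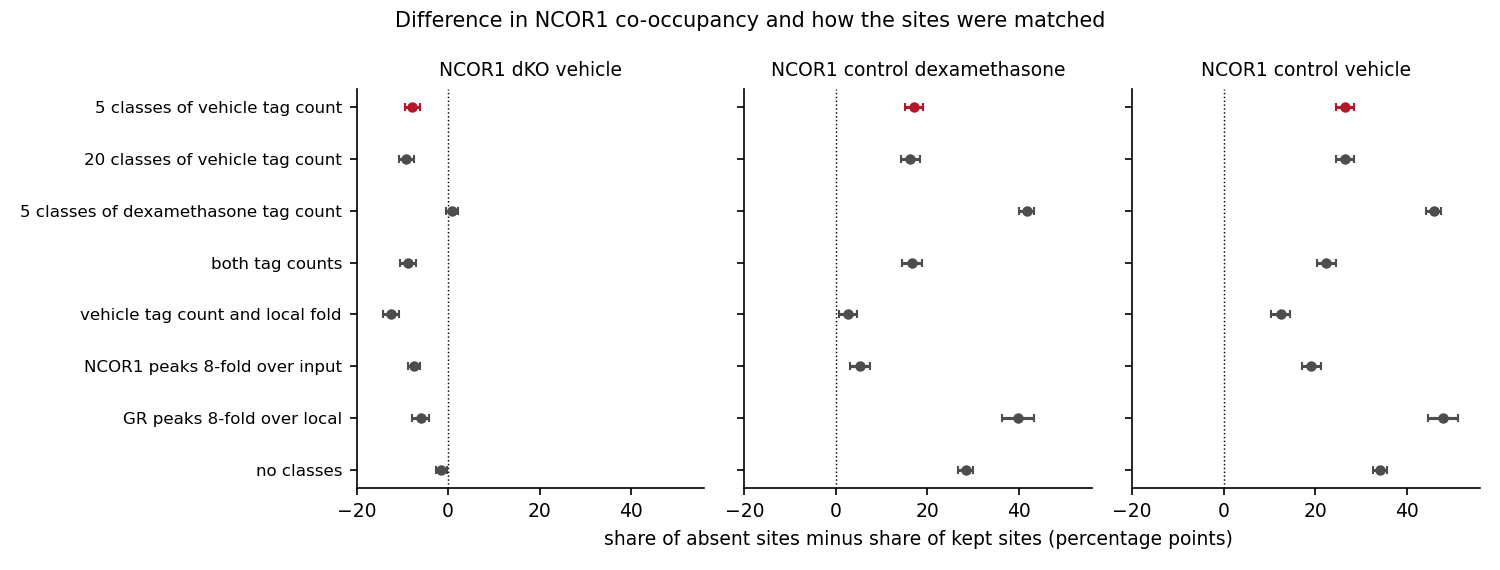
Share of sites with an NCOR1 peak among absent sites minus that among kept sites (percentage points, 95% intervals), for each NCOR1 list and for several ways of matching or filtering the sites; the red point is the value over 5 classes of vehicle tag count. Differences for control NCOR1 lie above 0 in every setting drawn, from 2.72 to 48.0 points, and that for dKO NCOR1 is 0.824 points when sites are matched on dexamethasone tag count.

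Where control vehicle liver had NCOR1, dKO liver still had an NCOR1 peak at 13.3% of members (356 of 2678, 12 to 14.6%), against 26.2% of kept sites (1892 of 7227, 25.2 to 27.2%). Over 5 classes of NCOR1 tag count the difference was -11.5 points (-13.2 to -9.84). NCOR1 peaks at members were of middling strength: the median member with control vehicle NCOR1 stood at percentile 59.5 of that list, against 77.1 for kept sites, with NCOR1 tag counts of 18.6 and 28.1. In control dexamethasone the percentiles were 56.9 and 76.8, with tag counts of 13.7 and 20.9.

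Both control NCOR1 lists had a peak at 2283 members (66.6%), of which 1962 had none in dKO vehicle. The dexamethasone list alone had one at 261 members, the vehicle list alone at 395, and neither list at 487 (14.2%), against 51.2% of kept sites with neither. Median GR tag counts of members under dexamethasone were 10.8 with both lists, 10.5 with the dexamethasone list alone, 9.66 with the vehicle list alone and 9.32 with neither, and under vehicle 9.28, 7.46, 9.28 and 7.46. The median ratio of dexamethasone over vehicle GR tag count was 1.13 with both lists, 1.35 with the dexamethasone list alone, 1.03 with the vehicle list alone and 1.22 with neither. The strongest members with NCOR1 in both lists were Hmcn2 (NCOR1 tag counts of 36.0 under dexamethasone and 57.4 under vehicle), Slc2a6 (22.6 and 56), Dap (16.4 and 39.4), Ptprd (18 and 8.44) and Dab2 (15.6 and 10.4).

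Members were also set against the sites called in a single dKO list. Control dexamethasone NCOR1 was found at 74.3% of members and 74.1% of sites near a dKO dexamethasone peak only, a difference of 1.44 points over classes of tag count (-0.770 to 3.64), so no difference was resolved within that interval. Control vehicle NCOR1 was found at 78.2% of members and 66.7% of those sites, 14.4 points more (12.2 to 16.7), and 5.09 points more (2.76 to 7.41) within classes of both GR tag counts. Against sites near a dKO vehicle peak only, members had 16.6 points more control vehicle NCOR1 (13.7 to 19.4), 13.5 points more control dexamethasone NCOR1 (10.7 to 16.4), and a difference of -10.1 points in dKO NCOR1 (-12.5 to -7.62). Within classes of tag count and local fold these were 7.91, 4.53 and -13.1 points.

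By position, 1907 members (55.7%) lay inside a protein-coding gene body, as did 55.6% of all control vehicle GR peaks. Over kept sites of matched tag count this was 3.16 points more (0.995 to 5.33), and 0.0374 points (-2.26 to 2.34) once the local fold was matched too. A gene end was within 1000 bp of 14.7% of members, where all control vehicle GR peaks had 15.4%, and 10.9% of kept sites of matched tag count, a difference of 3.85 points (2.40 to 5.30). The nearest kept site was a median 26.1 kb from a member, and a kept site had its nearest other kept site at a median of 30.01 kb. Within 5 kb, 11.9% of members and 9.85% of kept sites had another kept site. Among chromosomes with over 500 constant sites, members were 9.11% of constant sites on the X chromosome and 16.2% on chromosome 1, the extremes.

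The members lay in or within 100 kb of 2498 protein-coding genes, of 10846 genes with a control vehicle GR peak. Of the 2498, 866 had no kept site. How many of all 10846 genes had no kept site was not counted. A gene with few constant sites, such as Slc2a6 with 1, can be among the 866 through 1 member. Sites near a peak of 1 dKO list only are not kept sites, so genes among the 866 may still have a dKO peak. With 5 members each, the leading genes were Rora, Ptprk, Jak1, Grb10, Itpr1 and Med13l. Rora encodes a nuclear receptor that activates clock genes, Jak1 a kinase of cytokine signalling, Grb10 an adaptor that restrains insulin signalling and Itpr1 a calcium release channel. Rora had 25 constant sites of which 17 were kept, and Itpr1 22 and 14, whereas Ptprk had 8 and 3, Jak1 8 and 3, Grb10 9 and 4, and Med13l 9 and 3. The strongest of the 5 Rora members (chromosome 9, 69306832 to 69307032) had GR tag counts of 21.3 under dexamethasone and 15.1 under vehicle and NCOR1 tag counts of 41.7 and 42.8. Of 22 genes with 4 members, those with the highest summed vehicle tag count were Prkce, a protein kinase C gene, with 4 of 20 constant sites as members, and Pgpep1, a peptidase gene, with 4 of 5 and none kept. Among 2694 genes with 3 or more constant sites, 5 had no dKO peak near any of them. These genes, named after their values were seen, were Acadsb, an acyl-CoA dehydrogenase of branched-chain amino acid breakdown, with Letmd1, Tubb2a, Hcfc2 and Slc22a30. Each had 3 constant sites, the fewest that this count allows, and all were members. Tag counts under vehicle reached 16.6 at Acadsb. How many such genes would arise with members spread evenly over constant sites was not worked out.

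Gene lists were read by counts against the 14.3% of constant sites at protein-coding genes that were members, with no test. Gluconeogenic genes had 16 members among 102 constant sites (15.7%), with 69 kept. The leading members lay 91.3 kb outside Cebpb, a regulator of gluconeogenic genes (42.5 under dexamethasone and 28.0 under vehicle), in Ppargc1a, a coactivator of gluconeogenesis (24.1 and 27.1; 56154 bp from the nearest dKO peak), in Pcx, the pyruvate carboxylase gene (17.2 and 18.7), and 13.2 kb outside the pyruvate dehydrogenase kinase gene Pdk4 (34.3 and 12.4). The Pdk4 site had a dKO peak 537 bp away, just past the limit. Amino acid catabolism and the urea cycle had 9 of 60 (15%), led by the serine dehydratase-like gene Sdsl (26.5 and 27.7), the fumarylacetoacetase gene Fah (26.0 and 24.9), Hpd (33.3 and 24.4), which acts before Fah in tyrosine breakdown, and Kynu of tryptophan breakdown (15.5 and 13.1). The Kynu site lay 75.2 kb outside the gene. Of all 3121 members assigned to a gene, 74.5% had control dexamethasone NCOR1 and 78.6% control vehicle NCOR1. Control vehicle NCOR1 lay at 14 of the 16 gluconeogenic members, 8 of 9 for amino acids, 14 of 16 for hepatocyte identity, 5 of 10 for inflammation, 6 of 8 for fatty acid oxidation, 9 of 12 for bile acids, 8 of 9 for the clock, 7 of 10 for receptor targets, 5 of 5 for lipogenesis and 4 of 5 for the corepressor complex.

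Hepatocyte identity genes had 16 members of 94 constant sites (17%), led after Serpina1c by the fibrinogen gene Fgb (23.5 under dexamethasone and 20.2 under vehicle), the fetuin gene Ahsg (23.5 and 19.3) and Serpina1a (20.1 and 18). Control vehicle NCOR1 at Ahsg reached 77.6. Inflammation and acute phase genes had 10 of 57 (17.5%), among them Fgg (32.3 and 16.4), the interleukin 1 receptor antagonist gene Il1rn (29.5 and 15.7) and the haptoglobin gene Hp (29.6 and 15.7). Fatty acid oxidation and ketogenesis had 8 of 40 (20.0%), with Acadm (17.6 and 16.0), Hadhb (20.3 and 13.5) and Acot1 (23.1 and 12.9). Bile acid and cholesterol genes had 12 of 78 (15.4%), with the transporter genes Slco1b2 (25.1 and 20.6), Abca1 (13.2 and 19.8) and Abcg8 (22.1 and 15.1), and a site 2.62 kb outside Cyp7a1, whose enzyme sets the pace of bile acid formation (33.0 and 18.2). Clock genes had 9 of 68 (13.2%), with Per2 (16.8 and 17.1), Rora, Bhlhe40 (13.3 and 11.1) and Npas2 (9.99 and 9.10). The Bhlhe40 site lay 43.1 kb outside the gene. Several sites named in this paragraph had a dKO peak close by, at 556 bp for Hadhb, 589 for Abcg8, 602 for Ahsg, 612 for Cyp7a1, 747 for Hp and 832 for Fgb. At the others the nearest dKO peak was between 1064 bp (Acot1) and 22578 bp (Il1rn) away.

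Shares under the 14.3% of all protein-coding genes were found for glucocorticoid receptor targets, lipogenesis and the corepressor complex. The clock (13.2%), endothelial, stellate and cholangiocyte markers (13.3%) and neuronal genes (5.56%, 1 of 18) were under it too. The share of receptor targets was near that value, and lipogenesis and the corepressor complex had only 5 members each. Whether these shares differ from 14.3% was not tested. Of 91 constant sites at receptor targets 10 were members (11.0%) and 67 were kept. After Zbtb16 the leading members lay 72.4 kb outside Klf9, a Krüppel-like factor gene (36.5 under dexamethasone and 28.6 under vehicle), 54.7 kb outside the growth arrest gene Gadd45g (28.0 and 19.3), and in the repressor gene Bcl6 (7.16 and 15.5). Lipogenesis had 5 of 81 (6.17%), with Dgat2 of triglyceride synthesis (31.1 and 29.7), Elovl6 (11.8 and 13.8), Acly (9.16 and 10.9) and Gpam (20.0 and 10.9). The corepressor complex and nuclear receptor genes had 5 of 85 (5.88%), with Esr1 (20.6 and 12.2), Tbl1xr1 (14.3 and 10.9), the bile acid receptor gene Nr1h4 (16.2 and 10.6) and Tbl1x (8.33 and 7.83). Markers of other liver cells had few constant sites, of which members were 2 of 8 (25%) for Kupffer cells and leukocytes (Itgam, 25.6 and 10.2, and Csf1r, 5.66 and 7.64) and 4 of 30 (13.3%) for endothelial, stellate and cholangiocyte genes (Sox9, 20.5 and 11.6, with Stab2 and Stab1 below 9). Neuronal genes had 1 of 18 (Gad2, 7.49 and 6.19), and ribosomal protein genes 3 of 5 (Rps18, 12.3 and 14.4, Rpl4, 9.99 and 7.28, and Rplp0, 6.49 and 6.55). Some sites named in this paragraph lay far outside their gene, by 81.5 kb at Elovl6, 69.4 kb at Tbl1xr1, 53.8 kb at Sox9 and 35.8 kb at Tbl1x.

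At the 500 bp limit the members just inside were a site in Alyref2, 506 bp from a dKO vehicle peak (GR tag counts of 8.99 under dexamethasone and 14.6 under vehicle), one outside Itpr1 at 507 bp (10.7 and 10.9) and one outside Ppp2r3a at 507 bp (18.8 and 6.19). Just outside, a site near Ppdpf (10.7 and 8.01) and one in 4932438A13Rik (13.0 and 9.65) each had a dKO dexamethasone peak 497 bp away, with dKO tag counts of 4.86 and 6.58. The values on either side of the limit overlapped, and 221 members (6.45%) had a dKO peak within 1000 bp.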

How the data were processed

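GR and NCOR1 ChIP-seq peak lists of pooled groups were used. Per the submitters' processing notes, mm10 was the build and the tools were bedtools 2.29.2, HOMER 4.11, BWA 0.7.17 and Trim Galore 0.6.4. Per the file headers, the authors called peaks of 200 bp with HOMER findPeaks at 4-fold or more over input and over the local 10 kb, p of at most 0.0001 and 400 bp or more between peaks. For GR a tag threshold of 15 was set. The normalized tag count is a signal the authors deposited in tags per 10 M. Folds over input and over the local 10 kb are ratios the authors deposited. Per the labels, NCOR1 and input libraries were size selected and GR libraries were not. Depth per list was 17.5 to 36.9 M tags.

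Sites were assigned to the nearest protein-coding gene body within 100 kb (21887 genes, RefSeq, GRCm38.p6). Where several bodies held a site, the gene with the nearest end was taken. Shares carry 95% Clopper-Pearson intervals. A difference is the members' share minus that of kept sites weighted to the members' classes of tag count, with a 95% normal interval from binomial variances; it was tested on simulated data. No p-value of a comparison is given. Python 3.11.15, numpy 2.4.6, pandas 2.3.3 and scipy 1.17.1 were used. Alternatives covered the distance limit, overlap, folds, list length and classes.

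The text names the 12 strongest members and the next one (12 of these 13 have a gene within 100 kb), the 8 genes with most members (ties by summed vehicle tag count), up to 4 genes per list (1 result is not reported here), the 5 strongest members with both control NCOR1 lists, and the sites nearest the limit. The 4 promoters and the 5 genes with every constant site absent were picked after their values were seen. The members and lists were chosen with earlier results of these data known.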

Additional observations from a re-analysis of the deposited data

How the results depend on the processing

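The count of 3426 members was between 2966 and 3603 with limits of 200, 1000 or 2000 bp, and 3165 with an overlap of at least 100 bp between the control peaks. It was 1526 with control vehicle peaks of at least 8-fold over input, 681 with at least 8-fold over the local 10 kb, and 1647 with the control lists cut to the length of the dKO lists; these filters leave fewer peaks by construction. The differences from kept sites in control vehicle NCOR1 (12.5 to 48.0 points) and control dexamethasone NCOR1 (2.72 to 41.7 points) stayed above 0 with intervals clear of 0 under all 14 alternatives each. The difference in dKO vehicle NCOR1 turned to 0.824 points (-0.461 to 2.11) with classes of dexamethasone tag count and was between -12.6 and -1.51 points in the other alternatives; the cause was not tested. The gene body difference reached 0 within its interval with no classes (1.18 points) and with local fold matched in 5 by 5 classes (0.0374) or 10 by 10 classes (0.111). That within 1000 bp of a gene end ran from 1.61 to 3.98 points, and it was 7.17 points for 5000 bp. Against sites near a dKO dexamethasone peak only, the unresolved difference in dKO NCOR1 (0.145 points) turned to -0.257 points with local fold matched and to -3.23 points (-5.26 to -1.19) with both GR tag counts matched, and that in control dexamethasone NCOR1 turned to -0.921 points with both tag counts matched; the cause was not tested. Genes with a member numbered 2217 within 20 kb. Matching on local fold or on both tag counts, the comparisons with sites called in a single dKO list, and the share of control NCOR1 sites that also had dKO NCOR1, were chosen after seeing the data. Lists pool their libraries, so no library could be left out. No paired analysis was possible because the lists hold no value per replicate. Alternatives for motifs within the peaks were not run, since no genome was used here.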
